A study of Harpegnathos saltator with 22 samples.

Results

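The 150 genes described here are the most abundant transcripts of the ovary of the ant Harpegnathos saltator that had mean counts less than 2-fold apart between its 2 castes. They were selected on measured values: genes were kept where the mean normalized counts of the worker and the gamergate knockdown comparison lay within 1 on the log2 scale of each other, 1 gene was left out, and the 150 genes of 13693 with the highest smaller mean were taken. High abundance and a small caste ratio of these means are therefore properties of the choice and not results. RNA came from whole ovaries of single ants, 22 in all, and polyadenylated RNA was sequenced. Kr-h1 gamergates (7 ants) were mature gamergates that had received siRNA against Kr-h1, and GFP gamergates (6 ants) were mature gamergates that had received control siRNA. Kr-h1 workers (4 ants) and GFP workers (5 ants) were mature workers treated in the same ways. Every ant of the 4 groups was injected into the head with dicer-substrate siRNA in glucose solution with a transfection reagent, and the ovaries were taken 24 h later. The labels give no age in days, colony or nest, so p-values measure the spread between these ants.

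Gamergates are workers of this species that have taken over egg laying. In insect ovaries of the kind ants have, nurse cells make large amounts of ribosomes, translation factors, chaperones and mRNA and pass them to the growing oocyte, while follicle cells surround it and later secrete the eggshell. Many of the mRNAs are held silent in particles of RNA-binding proteins until the egg needs them. Kr-h1 is a zinc-finger transcription factor induced by juvenile hormone in insects, and the study asked how its knockdown altered ovary RNA in each caste.

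The authors' deposited table gives no values per ant: its columns are, for each comparison, the mean normalized count over the ants compared, the log2 fold change, and the raw and adjusted p. Depth per library is therefore unknown. The level of each group and the standard error (SE) of each log2 fold change were recovered from these columns, and levels are given as recovered group means in normalized counts. These are read counts not divided by transcript length, so they order genes by reads and not by molecules. A gene is called where its adjusted p is under 0.05. In the authors' deposited table, Kr-h1 itself was not called in gamergates (log2 fold change 0.26, SE 0.47 recovered, adjusted p = 0.734) or in workers (-0.48, SE 0.70 recovered, adjusted p = 0.706), and its recovered group means were 44.8 in Kr-h1 gamergates, 37.3 in GFP gamergates, 34.4 in Kr-h1 workers and 47.8 in GFP workers. A lower Kr-h1 level in these ovaries was thus not detectable with these ants. The summed level of 15 germline markers was 91464 in Kr-h1 gamergates, 90438 in GFP gamergates, 85136 in Kr-h1 workers and 64886 in GFP workers. No marker was listed at 0, but single levels differed widely: in GFP workers they ran from 213.5 (Nos) to 16558 (tral). The markers tral, exu and vas are among the genes chosen here for high abundance, so part of the sum follows from the choice. In bulk ovary RNA, fewer cells of a type and less RNA per cell cannot be told apart.

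Of the 150 genes, 148 were protein coding and 2 were long noncoding RNAs, LOC105188522 and LOC105183483. A descriptive symbol was available for 93 genes, and the other 57 are known by their gene ID alone. By role, 14 of the 51 listed translation factors and ribosome-associated proteins were among them, with 12 of 58 cytosolic ribosomal proteins, 11 of 20 chaperones and folding enzymes, 4 of 21 cytoskeletal genes, 4 of 29 genes of RNA binding and splicing, 3 of 15 germline genes, 3 of 15 chromatin genes, 3 of 53 respiratory chain genes and 3 of 83 genes of vesicle traffic. Cell cycle, glycolysis and ubiquitin lists had 1 gene each, and 33 genes with a symbol were on no list. None of the markers of eggshell (5 genes), fat body (8), muscle (14), nerve (18) or haemocytes (4) was among them.

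The 150 genes together held 13.97% of all normalized counts in Kr-h1 gamergates, 13.87% in GFP gamergates, 17.25% in Kr-h1 workers and 15.48% in GFP workers. Genes without a symbol held 42.3% of the counts of the 150 genes in the gamergate comparison and 38.9% in the worker comparison. Translation factors and ribosome-associated proteins held 11.6% in the gamergate comparison and 13.2% in the worker comparison. Chaperones and folding enzymes held 7.03% in the gamergate comparison and 6.14% in the worker comparison. Ribosomal proteins held 4.99% in the gamergate comparison and 7.60% in the worker comparison. Of the 150 genes, the one with the most reads in every group was LOC105187957, with 119982 counts in Kr-h1 gamergates, 92739 in GFP gamergates, 141542 in Kr-h1 workers and 87212 in GFP workers. This gene alone held between 5.23% and 7.55% of the counts of the 150 genes, and none of the 3 comparisons called it.

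At the limit of abundance, the last genes taken were eIF3a, Arf79F and mask, whose smaller mean counts in the authors' deposited table were 5056, 4982 and 4978. The first genes left out were RpL18 (4967), LOC105187751 (4964) and LOC105183111 (4962), by the smaller mean in the authors' deposited table. At the caste limit, Vgn and RpS6 lay just inside with log2 ratios of -0.999 and 0.994, and LOC112588346 and Fer1HCH, a ferritin heavy chain gene, lay just outside with -1.02 and 1.03. In all, 14 genes as abundant in both castes lay outside the caste limit, LOC112588346 and Fer1HCH included. Among the 14 were the ribosomal protein genes RpS3 and RpS3A on the worker side. On the gamergate side were the endoplasmic reticulum chaperones Gp93 and Hsc70-3 and the mRNA repressor me31B. The ratio compares 2 separately normalized comparisons whose scales were 0.14 apart on the log2 scale, and 147 of the 150 genes would have been chosen with that offset removed.

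**Figure D1:**
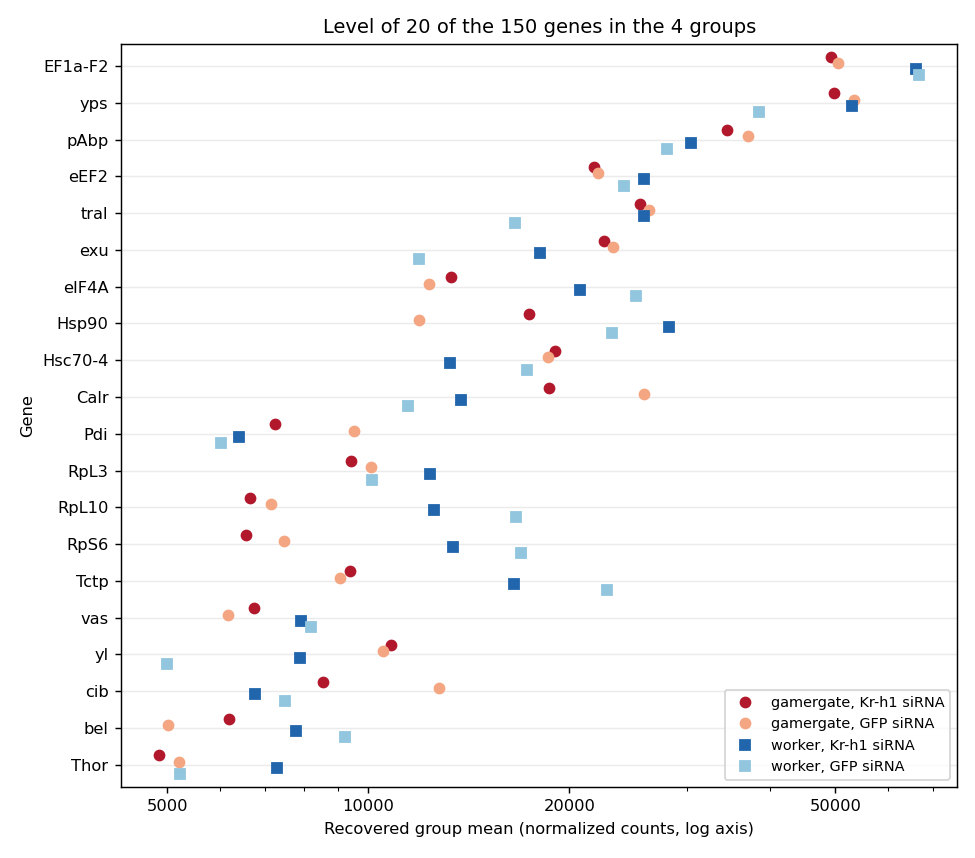
Recovered group means, in normalized counts on a log axis, of 20 of the 150 genes (rows) in Kr-h1 gamergates, GFP gamergates, Kr-h1 workers and GFP workers (n = 7, 6, 4 and 5 ants); no error per group could be recovered. tral, exu and yl were lowest in GFP workers, Calr and cib were highest in GFP gamergates, and EF1a-F2 differed little between siRNAs within either caste.

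Among these genes the changes with Kr-h1 siRNA were small in gamergates, while some were larger in workers. All 150 were tested in the 3 comparisons. In gamergates, 19 of the 150 (12.7%) were called in the authors' deposited table, against 14.8% of the 11145 genes tested; 8 rose (5.33%, against 8.95% of all genes) and 11 fell (7.33%, against 5.90%). The balance of these calls turned when fold changes were centred on genes of like abundance, with 15 of the 150 genes called higher and 6 lower. In workers, 7 (4.67%) were called in the authors' deposited table, against 4.92% of the 10577 genes tested; 6 rose (4.00%, against 2.23%) and 1 fell (0.667%, against 2.69%). After the same centring in workers, 2 of the 150 genes were called higher and 2 lower. The mean counts of these comparisons chose the genes, so the shares are descriptions.

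The changes in gamergates lay between -0.63 and 0.55 on the log2 scale, with a median of -0.04 for the 150 genes and 0.00 for all genes tested. A size of 0.5 or more was reached by 4 of the 150 genes (2.67%) in gamergates, against 17.5% of all genes tested and 3.56% of the tested genes with a smaller mean of at least 1000. In workers the log2 fold changes lay between -1.17 and 1.39, with a median of 0.09 for the 150 genes, 0.01 for all genes and 0.12 for the genes with a smaller mean of at least 1000. There, 25 of the 150 genes (16.7%) reached 0.5, against 27.0% of all genes and 9.34% of the genes with a smaller mean of at least 1000. The median SE of the 150 genes was 0.10 in gamergates and 0.19 in workers, so that 1.96 SE corresponded to 1.14-fold in gamergates and 1.30-fold in workers. The 95% interval lay wholly within 0.5 of zero change for 128 genes in gamergates, 55 in workers and 53 in both castes.

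No gene was called in both castes, 26 were called in 1 of them and 124 in neither. The matching shares of all genes tested were not computed, so these counts, the lack of overlap included, are descriptions only. The gamergate and the worker knockdown comparison share no ant. Spearman's correlation of the 2 responses was 0.04 over the 150 genes and -0.15 over the 10453 genes tested in both castes. Both values are descriptions, because the genes within each comparison share the same libraries. In 62 genes the fold change was negative in gamergates and positive in workers, in 22 the reverse, and it was positive in both for 37 and negative in both for 29. With fold changes centred on genes of like abundance these counts were 42, 32, 44 and 32, so the excess of the first kind depended on the scaling.

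**Figure D2:**
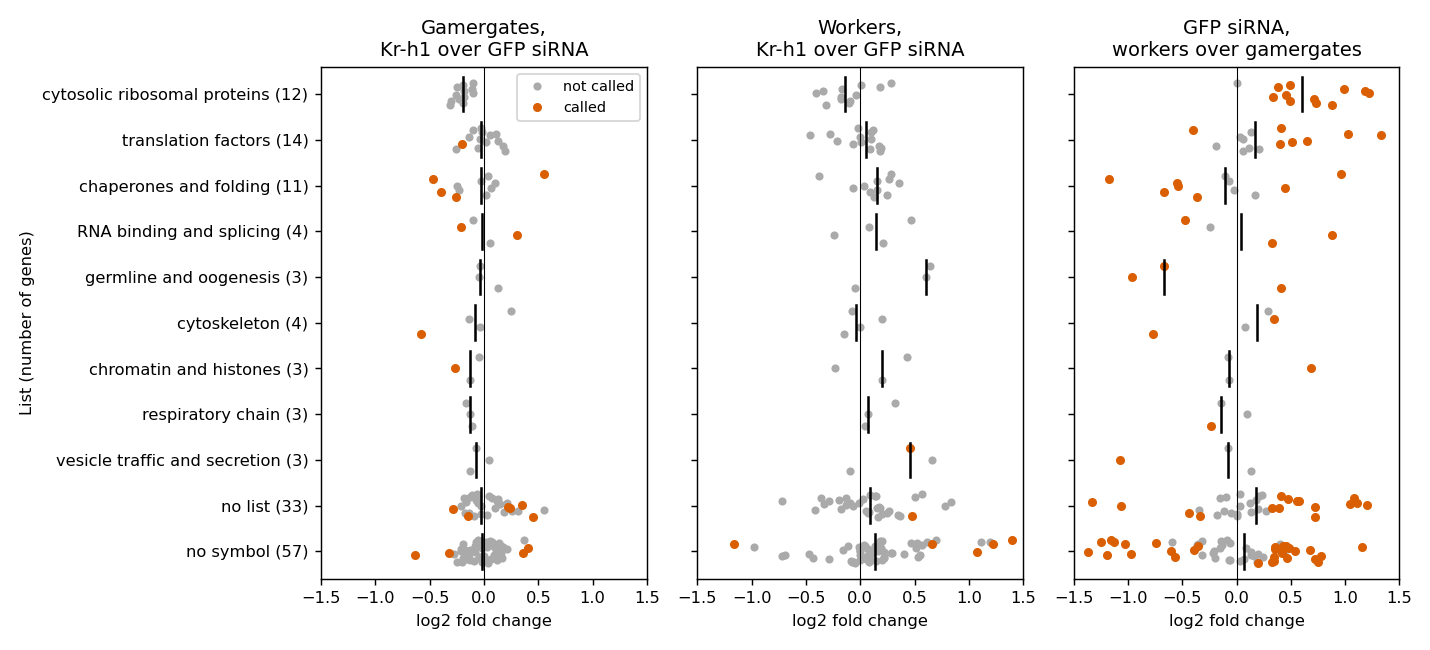
log2 fold changes of the 150 genes in the 3 comparisons, by list (rows, with the number of genes; lists with 1 gene are left out); orange points are called at adjusted p under 0.05 and black bars are medians. The 12 ribosomal protein genes lay left of zero in gamergates and right of zero in workers against gamergates.

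Of the 14 translation factors and ribosome-associated proteins among the 150 genes, 1 fell in gamergates, where 14.8% of all genes were called. None of the 14 was called in workers, where none had an unadjusted p under 0.05 by the authors' DESeq2 test either. Over the whole list of 51, 2 rose and 6 fell in gamergates and none was called in workers, where 2 had an unadjusted p under 0.05. EF1a-F2, the elongation factor that brings charged tRNA to the ribosome, had 49324 counts in Kr-h1 gamergates and 50403 in GFP gamergates, and 66070 in Kr-h1 workers and 66848 in GFP workers. Levels within each caste were close, and the log2 fold change in the authors' deposited table was -0.03 in gamergates (recovered 95% interval -0.21 to 0.15) and -0.02 in workers (-0.31 to 0.28). eEF2, which moves the ribosome along the mRNA, had 21802 counts in Kr-h1 gamergates and 22082 in GFP gamergates, and 25904 in Kr-h1 workers and 24169 in GFP workers. pAbp, the poly(A)-binding protein, had 34480 counts in Kr-h1 gamergates and 37069 in GFP gamergates, and 30386 in Kr-h1 workers and 28044 in GFP workers.

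The translation factor that fell was eIF1A, which takes part in start codon selection, with 5807 counts in Kr-h1 gamergates and 6695 in GFP gamergates. Its log2 fold change was -0.21 (SE 0.07 recovered, adjusted p = 0.045) in the authors' deposited table. The call was lost when the adjustment covered every gene with a p-value and when fold changes were centred. The gene eIF1, also of start codon selection, had 6714 counts in Kr-h1 gamergates and 6627 in GFP gamergates and was not called.

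Thor, known in fly as a repressor of cap-dependent translation that binds eIF4E, had 7296 counts in Kr-h1 workers and 5230 in GFP workers, and 4862 in Kr-h1 gamergates and 5198 in GFP gamergates. Kr-h1 workers had the highest of the 4 levels. Thor rose in workers by 0.48 on the log2 scale (SE 0.16 recovered, adjusted p = 0.0478) by the authors' deposited table and was not called in gamergates (-0.10, adjusted p = 0.595). Its call in workers was lost when fold changes were centred and when the adjustment covered every gene with a p-value. The gamergate minus worker difference of its responses was -0.58 (SE 0.20, z test with Benjamini-Hochberg adjusted p = 0.0379).

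Among the 12 ribosomal protein genes none was called in either caste, although 4 had an unadjusted p under 0.05 in gamergates and none in workers by the authors' DESeq2 test. All 12 log2 fold changes were negative in gamergates, with a median of -0.19, and 9 of 12 were negative in workers, with a median of -0.14; after centring 12 and 10 were negative. Across the whole list of 58 ribosomal protein genes, 2 fell in gamergates, where 5.90% of all genes fell, and none was called in workers. The medians of the list were -0.19 in gamergates and -0.22 in workers. RpL3, the member with the highest smaller mean, had 9412 counts in Kr-h1 gamergates and 10107 in GFP gamergates, and 12373 in Kr-h1 workers and 10141 in GFP workers. RpS6 had 6558 counts in Kr-h1 gamergates and 7467 in GFP gamergates, and 13392 in Kr-h1 workers and 16938 in GFP workers. How reads shared by similar gene copies were counted is not stated in the labels.

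Of the 20 listed chaperones and folding enzymes, 2 rose and 3 fell in gamergates, where 8.95% of all genes rose and 5.90% fell. Of the 11 chosen here, 1 rose and 3 fell there. In workers, where 2.23% of all genes rose, 1 of the 20 rose and none fell. The chaperones are described below by cell compartment. This grouping was made after the values had been seen, so its counts are descriptions only. Of the 5 genes for folding in the endoplasmic reticulum, where secreted and membrane proteins mature, 4 fell in gamergates. None of the 5 was called in workers, where none had an unadjusted p under 0.05 by the authors' DESeq2 test. The 5 include Ppib, which was on no list. They leave out Gp93 and Hsc70-3, which lay outside the caste limit and were not called in gamergates. Of the 7 chaperone genes of the cytosol and mitochondria, 1 rose in gamergates. None of the 7 was called in workers, where 1 had an unadjusted p under 0.05 by the authors' DESeq2 test.

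Calr, the calcium-binding lectin chaperone calreticulin, had 18665 counts in Kr-h1 gamergates and 25873 in GFP gamergates, and 13750 in Kr-h1 workers and 11460 in GFP workers. The Kr-h1 level lay below the GFP level in gamergates and above it in workers, and in the authors' deposited table the log2 fold change was -0.47 (SE 0.14 recovered, adjusted p = 0.0151) in gamergates and 0.26 (SE 0.19 recovered, adjusted p = 0.405) in workers. The difference between the 2 responses was -0.73 (SE 0.24, z test, adjusted p = 0.0295), a call that was lost when fold changes were centred. Pdi, a protein disulfide isomerase, had 7248 counts in Kr-h1 gamergates and 9533 in GFP gamergates, and 6395 in Kr-h1 workers and 6013 in GFP workers. In the authors' deposited table Pdi fell by 0.40 on the log2 scale in gamergates (SE 0.13 recovered, adjusted p = 0.0266) and was not called in workers (0.09, adjusted p = 0.799).

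Ppib, a cyclophilin of the same compartment, had 5224 counts in Kr-h1 gamergates and 6357 in GFP gamergates, and in the authors' deposited table it fell by 0.28 on the log2 scale (SE 0.09 recovered, adjusted p = 0.0178). CaBP1, a further disulfide isomerase, had 5653 counts in Kr-h1 gamergates and 6743 in GFP gamergates, with a fall of 0.25 in the authors' deposited table (adjusted p = 0.0267) that was no longer called when fold changes were centred. ERp60, the fifth gene, had 8046 counts in Kr-h1 gamergates and 9567 in GFP gamergates and missed the threshold in the authors' deposited table (-0.25, adjusted p = 0.0563). Gp93 and Hsc70-3, chaperones of this compartment that lay outside the caste limit, had log2 fold changes of -0.30 (adjusted p = 0.0971) and -0.27 (adjusted p = 0.0572) in gamergates and of 0.88 (adjusted p = 0.0262) and 0.58 (adjusted p = 0.103) in workers in the authors' deposited table.

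Hsp90, the cytosolic chaperone of kinases and hormone receptors, had 17418 counts in Kr-h1 gamergates and 11888 in GFP gamergates, and 28191 in Kr-h1 workers and 23181 in GFP workers. The level with Kr-h1 siRNA was the higher in both castes, and in the authors' deposited table the log2 fold change was 0.55 in gamergates (SE 0.11 recovered, adjusted p = 6.39e-05), the smallest adjusted p of the 150 genes there. Workers had 0.28 (SE 0.29 recovered, adjusted p = 0.577) in the authors' deposited table. The responses of the castes did not differ past the threshold (0.27, SE 0.31, z test, adjusted p = 0.592). Hsc70-4, the constitutive cytosolic Hsp70 protein, had 19032 counts in Kr-h1 gamergates and 18602 in GFP gamergates, and 13263 in Kr-h1 workers and 17274 in GFP workers, and was called in neither caste. CCT5, a subunit of the cytosolic chaperonin, had 8409 counts in Kr-h1 gamergates and 8554 in GFP gamergates, and 9061 in Kr-h1 workers and 8169 in GFP workers.

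**Figure D3:**
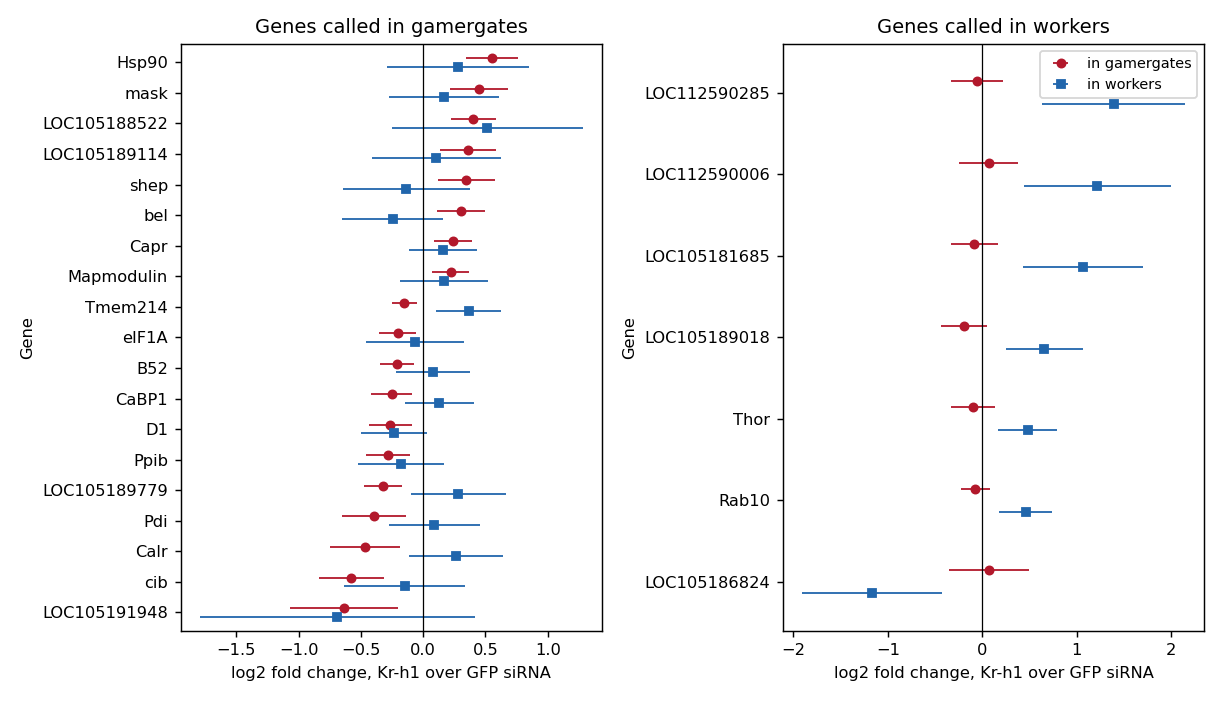
log2 fold changes, Kr-h1 over GFP siRNA, with recovered 95% intervals, of the 19 genes called in gamergates (left) and the 7 called in workers (right); each gene is drawn in gamergates (circles) and workers (squares). Worker intervals were mostly the wider ones.

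Proteins of stored mRNA and the oocyte made up a further group of 8, also assembled after the values had been seen. In gamergates, where 8.95% of all genes tested rose, 2 of the 8 rose, bel and Capr, a count that is a description only. In workers none was called, while 2 had an unadjusted p under 0.05 by the authors' DESeq2 test. bel, a DEAD-box RNA helicase, had 6185 counts in Kr-h1 gamergates and 5010 in GFP gamergates, and 7782 in Kr-h1 workers and 9232 in GFP workers. Its log2 fold change was 0.30 in gamergates (SE 0.10 recovered, adjusted p = 0.0205) and -0.25 in workers (SE 0.21 recovered, adjusted p = 0.486), as the authors' deposited table gives it. Capr, the Caprin protein of mRNA granules, had 6209 counts in Kr-h1 gamergates and 5268 in GFP gamergates, and in the authors' deposited table it rose by 0.24 on the log2 scale (adjusted p = 0.0258).

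The other proteins of oocyte mRNA particles were not called, and the gamergate log2 fold changes of yps, tral and exu in the authors' deposited table were -0.10 (adjusted p = 0.538), -0.04 (adjusted p = 0.771) and -0.04 (adjusted p = 0.799). yps, a Y-box protein that packages mRNA, had 49803 counts in Kr-h1 gamergates and 53334 in GFP gamergates, and 52959 in Kr-h1 workers and 38414 in GFP workers. tral, which in fly joins these particles, had 25523 counts in Kr-h1 gamergates and 26276 in GFP gamergates, and 25838 in Kr-h1 workers and 16558 in GFP workers. exu, which in fly acts in localising oocyte mRNA, had 22532 counts in Kr-h1 gamergates and 23222 in GFP gamergates, and 18074 in Kr-h1 workers and 11904 in GFP workers. For these 3 genes GFP workers had the lowest level of the 4 groups, but in the authors' deposited table the worker fold changes of 0.46 (SE 0.24 recovered, adjusted p = 0.236), 0.64 (SE 0.25, adjusted p = 0.0973) and 0.60 (SE 0.28, adjusted p = 0.172) did not pass the threshold.

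yl, the yolk protein receptor on the oocyte, had 10823 counts in Kr-h1 gamergates and 10504 in GFP gamergates, and 7902 in Kr-h1 workers and 5004 in GFP workers, with a worker log2 fold change of 0.66 in the authors' deposited table that was not called (SE 0.35 recovered, adjusted p = 0.234). vas, the germline DEAD-box helicase Vasa, had 6749 counts in Kr-h1 gamergates and 6164 in GFP gamergates, and 7919 in Kr-h1 workers and 8195 in GFP workers. Neither caste's response of vas was called, and its levels lay closer together than those of exu or yl.

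Of the 4 genes on the list of RNA binding and splicing, bel rose and B52 fell in gamergates, and yps and Rsf1 were not called. Over the whole list, 8 rose and 2 fell of the 28 tested in gamergates, where 8.95% of all genes rose and 5.90% fell. mask, a large ankyrin repeat protein with a KH domain, had 5545 counts in Kr-h1 gamergates and 4060 in GFP gamergates, and in the authors' deposited table it rose by 0.45 on the log2 scale (SE 0.12 recovered, adjusted p = 0.00538). shep, an RNA-binding protein known from fly, had 7556 counts in Kr-h1 gamergates and 5940 in GFP gamergates, and in the authors' deposited table it rose by 0.35 (adjusted p = 0.0286). B52, a splicing factor of the SR family, had 7615 counts in Kr-h1 gamergates and 8811 in GFP gamergates, and the log2 fold change in the authors' deposited table was -0.21 (adjusted p = 0.0255), which was not called when fold changes were centred.

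Of the 4 cytoskeletal genes chosen here, cib fell and the other 3 were not called in gamergates. Over the whole list of 21, 4 rose and 1 fell in gamergates, where 8.95% of all genes rose and 5.90% fell. The fold change was positive for 16 of the 21, and cib was the 1 that fell. cib, known in fly as an actin monomer binding protein, had 8557 counts in Kr-h1 gamergates and 12760 in GFP gamergates, and 6774 in Kr-h1 workers and 7507 in GFP workers. GFP gamergates had the highest of the 4 levels, and in the authors' deposited table the log2 fold change was -0.58 in gamergates (SE 0.13 recovered, adjusted p = 0.00156) and -0.15 in workers (SE 0.25 recovered, adjusted p = 0.742). The actin regulators chic, a profilin, and tsr, a cofilin, had log2 fold changes of 0.25 (adjusted p = 0.0991) and -0.14 (adjusted p = 0.341) in gamergates in the authors' deposited table. Tm1, a tropomyosin, had 6606 counts in Kr-h1 gamergates and 6764 in GFP gamergates, and 7165 in Kr-h1 workers and 7159 in GFP workers.

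D1, a DNA-binding chromosomal protein, had 5373 counts in Kr-h1 gamergates and 6451 in GFP gamergates, and 8808 in Kr-h1 workers and 10366 in GFP workers. The log2 fold change of D1 was -0.26 in gamergates (adjusted p = 0.029) and -0.23 in workers (adjusted p = 0.287) by the authors' deposited table, and the gamergate call was lost when fold changes were centred. The histone variant gene His2Av and the histone chaperone subunit gene Caf1-55 were called in neither caste. Mapmodulin, of the acidic ANP32 protein family, had 6754 counts in Kr-h1 gamergates and 5799 in GFP gamergates, and in the authors' deposited table it rose by 0.22 (adjusted p = 0.0334).

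Of the respiratory chain, 3 ATP synthase genes were among the 150. On the whole list of 53, 5 genes fell in gamergates, where 5.90% of all genes tested fell. There 52 of 53 log2 fold changes were negative, against 5558 of the 11145 genes tested. An unadjusted p under 0.05 was reached by 25 of the 53, against 31.9% of all genes tested. In workers none was called, and 1 had an unadjusted p under 0.05 by the authors' DESeq2 test. The 3 genes ATPsynC, ATPsynbeta and blw had log2 fold changes of -0.17, -0.13 and -0.11 in gamergates and 0.32, 0.07 and 0.05 in workers in the authors' deposited table; none was called, and in gamergates 1 of them had an unadjusted p under 0.05, and in workers none. Ant, the carrier that exchanges ATP and ADP across the inner mitochondrial membrane, had 15619 counts in Kr-h1 gamergates and 16882 in GFP gamergates, and 21132 in Kr-h1 workers and 19809 in GFP workers. Prx2, a peroxiredoxin that breaks down peroxides, had 21827 counts in Kr-h1 gamergates and 22880 in GFP gamergates, and 34752 in Kr-h1 workers and 23448 in GFP workers, and its worker fold change of 0.57 in the authors' deposited table was not called (SE 0.29 recovered, adjusted p = 0.212).

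Of the 3 genes on the list of vesicle traffic, Rab10 was called in workers. Over the whole list of 83, 3 rose and none fell in workers, where 2.23% of all genes rose and 2.69% fell. Rab10, a small GTPase of vesicle transport, had 7730 counts in Kr-h1 workers and 5613 in GFP workers, and 5633 in Kr-h1 gamergates and 5917 in GFP gamergates. Kr-h1 workers had the highest of the 4 levels, and in the authors' deposited table Rab10 rose by 0.46 in workers (SE 0.14 recovered, adjusted p = 0.0366) and was not called in gamergates (-0.07, adjusted p = 0.563). The difference of its responses was -0.53 (SE 0.16, z test, adjusted p = 0.0215); neither this call nor the worker call remained when fold changes were centred. Sap-r, the precursor of lysosomal saposins, had 6626 counts in Kr-h1 workers and 10951 in GFP workers, and 7940 in Kr-h1 gamergates and 7330 in GFP gamergates. Its worker log2 fold change of -0.72 in the authors' deposited table missed the threshold (SE 0.24 recovered, adjusted p = 0.0524), and the difference of the responses was 0.84 (SE 0.28, z test, adjusted p = 0.0304).

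The other genes called in workers had no symbol. LOC112590285 had 33760 counts in Kr-h1 workers and 12853 in GFP workers, and 27685 in Kr-h1 gamergates and 28714 in GFP gamergates. GFP workers were the low group, and in the authors' deposited table the worker log2 fold change was 1.39 (SE 0.39 recovered, adjusted p = 0.0186), against -0.05 in gamergates (SE 0.14 recovered, adjusted p = 0.823). LOC105181685 had 10608 counts in Kr-h1 workers and 5044 in GFP workers, and 12319 in Kr-h1 gamergates and 13035 in GFP gamergates. In the authors' deposited table it rose in workers by 1.07 (SE 0.32 recovered, adjusted p = 0.0312), while LOC112590006 rose by 1.22 (SE 0.40, adjusted p = 0.0461) and LOC105189018 by 0.66 (SE 0.21, adjusted p = 0.0404). The calls of LOC112590006 and LOC105189018 were lost when fold changes were centred.

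LOC105186824 was the 1 gene of the 150 that fell in workers, where centring of the fold changes also brought Sap-r past the threshold. It had 7527 counts in Kr-h1 workers and 16897 in GFP workers, and 13480 in Kr-h1 gamergates and 12824 in GFP gamergates. Its worker log2 fold change was -1.17 in the authors' deposited table (SE 0.38 recovered, adjusted p = 0.0453), a call that was lost when the adjustment covered every gene with a p-value.

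In gamergates 4 of the called genes had no symbol. The long noncoding RNA LOC105188522 had 11072 counts in Kr-h1 gamergates and 8379 in GFP gamergates, and in the authors' deposited table it rose by 0.40 on the log2 scale (SE 0.09 recovered, adjusted p = 0.00157). LOC105189114 rose by 0.36 in gamergates (adjusted p = 0.0186) in the authors' deposited table. LOC105191948 had 7159 counts in Kr-h1 gamergates and 11104 in GFP gamergates, the largest gamergate change of the 150 genes, and in the authors' deposited table it fell by 0.63 (SE 0.22 recovered, adjusted p = 0.0355). LOC105189779 fell by 0.32 (adjusted p = 0.00249) in the authors' deposited table.

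**Figure D4:**
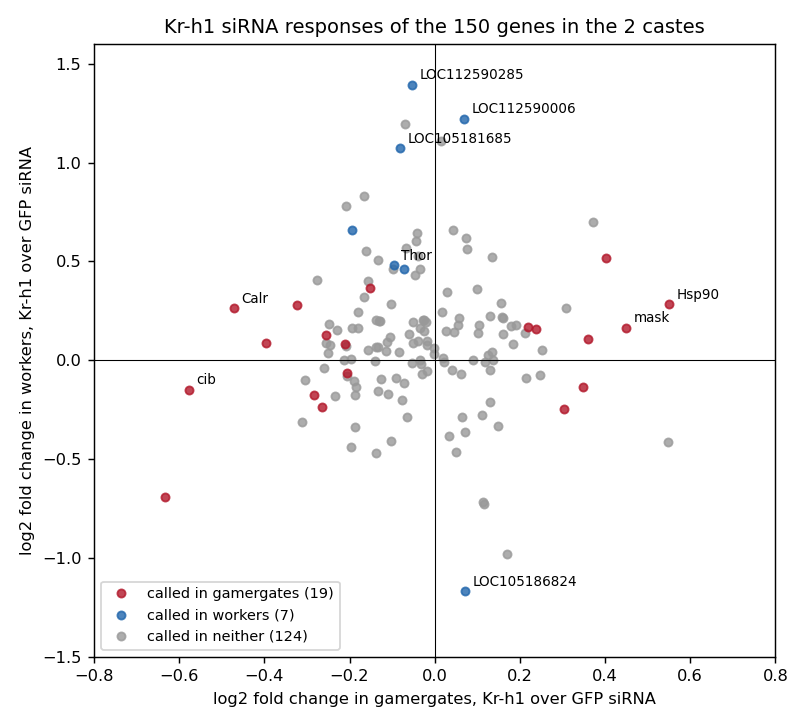
log2 fold change with Kr-h1 over GFP siRNA in gamergates (x axis) against that in workers (y axis) for the 150 genes; red points are called in gamergates (19), blue points in workers (7) and grey points in neither (124). The 7 genes called in workers lie between -0.19 and 0.07 on the gamergate axis.

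The responses of the castes were compared directly by a z test of the gamergate minus the worker log2 fold change, with Benjamini-Hochberg adjustment over 10453 genes. Of the 150 genes, 13 (8.67%) differed, against 10.5% of all genes; 2 had the higher response in gamergates (1.33%, against 5.19%) and 11 the lower (7.33%, against 5.27%). With fold changes centred, 3 had the higher response in gamergates and 5 the lower. The median difference was -0.12 for the 150 genes, 0.01 for all genes and -0.11 for the genes with a smaller mean of at least 1000, so abundant genes in general had a median below zero. Sap-r and LOC105186824 were the 2 with the higher response in gamergates. Exd2, an exonuclease gene, had 13968 counts in Kr-h1 gamergates and 15663 in GFP gamergates, and 11069 in Kr-h1 workers and 6220 in GFP workers, and its difference of responses was -0.997 (SE 0.31, z test, adjusted p = 0.023). Sfxn1-3, a sideroflexin of the mitochondrial membrane, had 9824 counts in Kr-h1 gamergates and 11352 in GFP gamergates, and 9357 in Kr-h1 workers and 5440 in GFP workers, with a difference of -0.99 (SE 0.33, z test, adjusted p = 0.0353) that was no longer called when fold changes were centred. Neither Exd2 nor Sfxn1-3 was called in either knockdown comparison alone. Tmem214, a membrane protein gene, had the smallest adjusted p of the 150 differences (-0.52, SE 0.14, z test, adjusted p = 0.00844).

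Markers of other tissues moved in the same libraries. The summed level of the 14 muscle markers was 8068 in Kr-h1 gamergates and 6301 in GFP gamergates, and 15221 in Kr-h1 workers and 29588 in GFP workers. By the authors' deposited table, 4 of the 14 rose in gamergates, and in workers none was called while 13 of 14 fold changes were negative and 6 had an unadjusted p under 0.05. The summed level of the 8 fat body markers was 7517 in Kr-h1 gamergates and 4307 in GFP gamergates, and 11200 in Kr-h1 workers and 21431 in GFP workers, with 3 of 8 called higher in gamergates and 1 of the 7 tested called lower in workers. The 5 eggshell markers summed to 4032 in Kr-h1 gamergates and 15504 in GFP gamergates, and 2588 in Kr-h1 workers and 2657 in GFP workers; 1 rose and 1 fell of the 3 tested in gamergates, and 4 of 5 fell in workers. Nerve markers (18 genes) ranged between 4831 and 6279 in summed level over the 4 groups, with 4 higher in gamergates and 1 of the 15 tested lower in workers. Haemocyte markers (4 genes) ranged between 821 and 2376, with none called in gamergates, where 1 had an unadjusted p under 0.05 by the authors' DESeq2 test, and 1 lower in workers. Of all genes tested, 8.95% rose and 5.90% fell in gamergates, and 2.23% rose and 2.69% fell in workers. No marker of these lists was listed at 0. Their part in the changes of the 150 genes was not tested.

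Between castes with GFP siRNA, many of the 150 genes differed although their mean counts had been required to lie within 2-fold. A total of 84 of 150 (56.0%) were called in the authors' deposited table, against 53.2% of the 12338 genes tested; 55 were higher in workers (36.7%, against 27.2%) and 29 lower (19.3%, against 26.0%). The rule limited the caste ratio of means over Kr-h1 and GFP ants together, not this ratio of GFP ants alone. The GFP ants entered those means, so the counts describe the chosen genes. A size of 1 or more on the log2 scale was reached by 19 of the 150 genes (12.7%), against 31.7% of all genes tested. The GFP ants of this comparison are the controls of both knockdown comparisons, so its values stand beside those of the knockdowns and are not set against them. The log2 fold changes, workers over gamergates, lay between -1.37 and 1.33, with a median of 0.13 for the 150 genes and 0.05 for all genes tested.

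Genes of the ribosome were higher in workers. Of the 12 ribosomal protein genes 11 were called higher in workers, with a median log2 fold change of 0.60, and of the whole list 54 of 58 were, with a median of 1.01. RpL10 had 16633 counts in GFP workers and 7151 in GFP gamergates, and in the authors' deposited table the log2 fold change was 1.22 (SE 0.19 recovered, adjusted p = 2.37e-09). RpL3 was the exception among the 12, at 10141 counts in GFP workers and 10107 in GFP gamergates. Tctp, a translationally controlled protein that is abundant in growing cells, had 22766 counts in GFP workers and 9079 in GFP gamergates, with a log2 fold change of 1.33 in the authors' deposited table (SE 0.19 recovered, adjusted p = 2.41e-11). eIF4A, the helicase of translation initiation, had 25126 counts in GFP workers and 12316 in GFP gamergates. Of the 14 translation factors and ribosome-associated proteins, 6 were called higher in workers, Tctp and lark among them, and 1 lower. The lower gene was pAbp, with a log2 fold change of -0.40 in the authors' deposited table (adjusted p = 0.00316). Over the whole list of 51, 18 were higher and 9 lower, with a median of 0.07. Of all genes tested, 27.2% were higher in workers and 26.0% lower.

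Some genes outside translation were also higher in workers. shep had 13681 counts in GFP workers and 5940 in GFP gamergates, and the log2 fold change in the authors' deposited table was 1.20 (SE 0.19 recovered, adjusted p = 8.18e-10). 14-3-3epsilon, an adaptor of phosphorylated proteins, had 13873 counts in GFP workers and 6441 in GFP gamergates. CtsL1, a cathepsin L protease of lysosomes, had 21847 counts in GFP workers and 10339 in GFP gamergates, and Hsp90 had 23181 in GFP workers and 11888 in GFP gamergates. Muscle markers summed to 29588 in GFP workers and 6301 in GFP gamergates and 12 of 14 were higher in workers; fat body markers summed to 21431 in GFP workers and 4307 in GFP gamergates and 5 of the 7 tested were higher. Their part in the caste differences of the 150 genes was not tested.

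Genes lower in workers included some of the endoplasmic reticulum and the oocyte, in groups assembled after the values had been seen. The lists were more evenly split. Of the 15 germline genes 6 were higher in workers and 7 lower, and of the 20 chaperones and folding enzymes 5 were higher and 8 lower. Calr had 11460 counts in GFP workers and 25873 in GFP gamergates, and in the authors' deposited table the log2 fold change was -1.18 (SE 0.17 recovered, adjusted p = 2.19e-11). Of the 5 genes for folding in the endoplasmic reticulum, 4 were lower in workers, and Ppib was not called (0.19, adjusted p = 0.307) in the authors' deposited table. Among all genes tested, 26.0% were lower in workers and 27.2% higher. yl had 5004 counts in GFP workers and 10504 in GFP gamergates (log2 fold change -1.07 in the authors' deposited table, SE 0.27 recovered, adjusted p = 0.000306). exu had 11904 counts in GFP workers and 23222 in GFP gamergates (log2 fold change -0.96 in the authors' deposited table, SE 0.21 recovered, adjusted p = 2.26e-05). Of the 8 genes of stored mRNA and the oocyte, 5 were lower in workers and 3 higher, the 3 being vas, bel and Capr. Exd2 (-1.33), Sfxn1-3 (-1.06) and cib (-0.77) were among the other genes lower in workers by log2 fold change in the authors' deposited table.

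As given above, 12.7% of the 150 genes were called in gamergates, 4.67% in workers and 56.0% between castes. The shares of all genes tested were near these, at 14.8%, 4.92% and 53.2%. The share of all genes called in no comparison was not computed, so the next count is a description only. Over the 3 comparisons, 56 of the 150 genes were called in none. Among them eEF2 had recovered 95% intervals of its log2 fold change of -0.19 to 0.15 in gamergates and -0.15 to 0.35 in workers, and eEF1gamma, a subunit of the elongation factor complex, had -0.20 to 0.12 in gamergates and -0.15 to 0.34 in workers. kra, known in fly as a translation regulator related to eIF5, had 7239 counts in Kr-h1 gamergates and 7507 in GFP gamergates, and 8126 in Kr-h1 workers and 8206 in GFP workers, with intervals of -0.17 to 0.07 in gamergates and -0.28 to 0.25 in workers. Larger changes are not within these intervals, while smaller ones could not be resolved with these ants.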

How the data were processed

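Ovary RNA of 22 single ants was measured by strand-specific sequencing, and the labels' caste and knockdown fields gave the 4 groups. Tools named in the submitters' processing notes, with no version, are STAR, featureCounts, DESeq2 and bcl2fastq; genome build and model formula: not given in the sources used here. In the labels, the treatment text writes the control as GRP, the other labels as GFP. The authors' deposited table holds, per comparison, the mean normalized count, the log2 fold change and the raw and adjusted p-value, with 0 further value columns. With no values per ant, the planned count model, depth and replicate SDs could not be had, and the authors' fold changes and adjusted p at 0.05 were used. Adjusted p-values followed Benjamini-Hochberg to within 0.0018.

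SE was recovered as the log2 fold change over the normal quantile that its p-value stands for (this assumes a Wald test), and group means from mean count, fold change and group sizes, on the scale of the caste comparison. Differences of responses were z tests over 10453 genes, tested on simulated data (Python 3.11.15, pandas 2.3.3, scipy 1.17.1). Centred fold changes had the median of genes in the same of 20 strata of mean count subtracted. Symbols came from RefSeq (Hsal_v8.6; 13680 of 13693 IDs matched) and stand for presumed counterparts; 17 symbol lists held the roles.

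The genes and lists were chosen with earlier results of these data known. Named genes were those with a symbol and the 10 highest smaller means, up to 6 called per direction and comparison with the largest change, up to 3 per list, and those at the limits; eIF1, eIF1A, eEF1gamma, eIF4A, CCT5, ERp60, kra, Vgn, the non-members Gp93, Hsc70-3, me31B, RpS3 and RpS3A, and most genes without a symbol were chosen after their values were seen.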

Additional observations from a re-analysis of the deposited data

Results flagged for a closer look

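For 13 of the 150 genes the gamergate and the worker response to Kr-h1 siRNA differed by the z test of the difference (adjusted p under 0.05 over 10453 genes). Values are gamergate minus worker log2 fold changes. The lower gamergate responses were those of LOC112590285 (-1.45), LOC105189928 (-1.27), LOC105181685 (-1.15), Exd2 (-0.997), Sfxn1-3 (-0.99), LOC105189018 (-0.85), Calr (-0.73), LOC105189779 (-0.60), Thor (-0.58), Rab10 (-0.53) and Tmem214 (-0.52). Sap-r (0.84) and LOC105186824 (1.24) had the higher gamergate responses. With fold changes centred on genes of like abundance 8 of the 150 genes differed (3 higher, 5 lower), and LOC105189928, Calr, LOC105189779, Sfxn1-3, Rab10 and Thor were no longer called.

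Of the 11 with the lower gamergate response, Calr, LOC105189779 and Tmem214 were called lower in gamergates, LOC112590285, LOC105181685, LOC105189018, Thor and Rab10 were called higher in workers, and Exd2, Sfxn1-3 and LOC105189928 were called in neither knockdown comparison. The gamergate call of Tmem214 was lost when fold changes were centred. LOC105189928 had 26841 counts in Kr-h1 gamergates and 28173 in GFP gamergates, and 29572 in Kr-h1 workers and 12903 in GFP workers; its worker log2 fold change of 1.20 in the authors' deposited table missed the threshold (adjusted p = 0.0541).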

How the results depend on the processing

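The share of the 150 genes called moved with the threshold: at an adjusted p under 0.01 it was 3.33% in gamergates, 0% in workers (the authors' DESeq2 test, with 27 genes at an unadjusted p under 0.05) and 0.667% for the difference of responses, and at 0.1 it was 19.3%, 10% and 15.3%. Adjustment over every gene with a p-value gave 2.67% in workers, centring by stratum of mean count gave 2.67% in workers and 5.33% for the difference, and a caste ratio under 0.5 gave 5.33% for the difference. The share of all counts held was 11.4% in gamergates and 13.2% in workers for the 100 most abundant genes, and 19.5% and 23.4% for 300. The other shares of genes called in either direction stayed within 1.5 times. The directions did not: in gamergates 8 higher and 11 lower became 15 and 6 with centring and 14 and 7 with a caste ratio under 0.5, and for the difference 2 and 11 became 3 and 5 with centring. Single-gene values were checked for only part of the 150 genes, so they do not hold every call gained in the counts above. Of these values, 243 kept their call and direction with the wider adjustment and 5 lost the call. With centring 226 kept both, 19 lost the call and 3 gained it, Sap-r in workers among them, and none reversed. The choice without the scale offset was added after seeing the data. The causes were not tested. No paired analysis was possible because the deposited table has no values per ant; leaving out each replicate was not run for the same reason, and protein length and promoter motifs were not run because no sequence was used here.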
